A study of Mus musculus with 2 samples.

Results

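The cells described here are those that the authors' annotation calls NKT cells in mouse heart allografts. They were chosen by that annotation alone and numbered 347 of the 4441 annotated cells. Donor hearts came from Bm12 mice, which carry a mutated MHC class II I-A molecule, and were transplanted heterotopically into wild-type C57BL/6 (B6) recipients and recovered at postoperative day 14. The 3 hearts labelled IL-33+ were Bm12 hearts with intact Il33 (hearts 1 to 3). The 3 hearts labelled IL-33- were Bm12 hearts lacking Il33 (hearts 4 to 6), from a line made by backcrossing Bm12 onto il33-/- mice. The recipients had intact Il33 in both groups, so the loss of IL-33 concerned the graft and not the infiltrating cells of the recipient. Per the methods the mice were male. Each heart was 1 animal's graft, and all 6 were stained with separate hashtags, pooled and run in 1 capture.

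NKT cells are T cells that carry receptors of NK cells, and the invariant NKT cell recognises lipids on CD1d through a T cell receptor of limited diversity under the transcription factor PLZF, encoded by Zbtb16. NK cells lack a rearranged T cell receptor, are read through killer cell receptors and the adaptors DAP12 (Tyrobp) and FcRγ (Fcer1g), and kill with perforin and granzymes. Both kinds of cell can respond to IL-33, the alarmin released by injured tissue, where they hold its receptor ST2, encoded by Il1rl1.

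The hashtags below are the antibody-borne oligonucleotides that tie each cell to its heart, on which every comparison between hearts rests. They are printed 5′ to 3′ with the whole barcode in capitals.
Heart 1, IL-33+: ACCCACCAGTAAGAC
Heart 2, IL-33+: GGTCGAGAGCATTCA
Heart 3, IL-33+: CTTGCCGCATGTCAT
Heart 4, IL-33-: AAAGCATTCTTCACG
Heart 5, IL-33-: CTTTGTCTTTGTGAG
Heart 6, IL-33-: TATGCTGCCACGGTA

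The annotated NKT cells numbered 50, 17 and 100 in the IL-33+ hearts and 69, 28 and 83 in the IL-33- hearts. Their summed UMIs (unique molecular identifiers, 1 per captured transcript) ranged from 102745 in heart 2 to 654645 in heart 3, so heart 2 was the least precise and heart 3 the most. No cell barcode occurred more than once in the file. Il33 itself gave 5 UMIs in all 347 cells, 2 in IL-33+ and 3 in IL-33- hearts. In annotated fibroblasts the hearts labelled IL-33+ held 7, 0 and 121 Il33 UMIs in 34, 6 and 270 cells, and those labelled IL-33- held 9, 3 and 5 UMIs in 31, 4 and 30 cells. Il33 transcripts were thus also found in the hearts labelled IL-33-, and because the sources used here do not give the deleted part of the gene, a 3′ count does not check these labels.

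The annotated cells carried transcripts of NK cells at levels near or below those of the annotated NK cells. They carried Cd3e and Trac, of the T cell receptor, at levels far below those of T cells. Levels are given as CPM, the UMIs of a gene scaled to a common total per cell, averaged over the cells of a heart and then over the 6 hearts. The types were annotated from the same expression values, so differences between types are descriptions and were not tested. Gzma, encoding granzyme A, was at 4418 CPM in the annotated NKT cells, 5962 in NK cells, 1151 in Trm-like cells and 232.7 in Tem/eff cells. Ccl5, a chemokine of cytotoxic lymphocytes, was at 2134 CPM, between Tem/eff cells at 362 and NK cells at 3652. With each cell thinned, by a random draw, to 1505 UMIs, Ccl5 was at 2196 CPM in NKT, 3922 in NK and 3194 in Trm-like cells. Nkg7, a granule membrane protein, was at 940.3 CPM in NKT and 952.6 in NK cells. These markers of the annotation were therefore shared with NK cells, and Ccl5 with Trm-like cells too. Of the markers of the annotation, Cd3e was the one that stood higher in NKT than in NK cells.

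Cd3e, a signalling chain of the T cell receptor complex, was at 77.4, 47.2 and 98.4 CPM in the NKT cells of the IL-33+ hearts and 70.5, 56.9 and 70.6 in those of the IL-33- hearts. Its mean of 70.2 CPM lay above the 18.1 CPM of NK cells, in every heart, and below the 420.2 CPM of Trm-like and 567.6 CPM of Tem/eff cells, also in every heart. After each cell was thinned to 1505 UMIs, a Cd3e UMI was found in 9.8% of NKT cells (95% exact binomial interval 6.88 to 13.4%), 2.36% of NK cells, 50.1% of Tem/eff cells and a share of Trm-like cells whose interval was 44.7 to 55.3%. Macrophages and B cells, which should lack Cd3e, gave 0.233% and 1.4%. Without thinning the NKT share was 25.1%, at a median of 5742 UMIs per cell, against 2.56% of macrophages at a median of 6606. The intervals cover counting error only. Cd3e transcripts in NKT cells thus stood above the free RNA background and below the T cell level.

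Among other T cell transcripts Trac showed the same order, and Trdc did not. Trac, the constant region of the receptor α chain, was at 92.4 CPM in NKT, 43.2 in NK, 395.1 in Trm-like and 523.5 in Tem/eff cells. Bcl11b, a transcription factor of T cell commitment, was at 26.5 CPM in NKT and 379.4 CPM in Trm-like cells, and Cd6, a T cell surface receptor, at 35.4 and 362.4 CPM. The coreceptor Cd8a was at 26.1 CPM against 255.7 in Trm-like cells, and Cd4 at 10.3 CPM against 302.5 in Tem/eff cells. Trdc, the constant region of the receptor δ chain, was at 39.7 CPM in NKT and 35.8 CPM in NK cells. After thinning to 1505 UMIs it was at 42.1 CPM in NKT, 37.8 in NK, 36.7 in Trm-like and 2.03 in Tem/eff cells. In central memory (Tcm) cells it was at 109.9 CPM.

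The genes that define the invariant NKT cell were low or had no UMI, while listed genes of that cell that NK cells also express were not. Il2rb, a chain of the receptor of IL-2 and IL-15, was at 2574 CPM in NKT and 2726 CPM in NK cells, Gata3, a transcription factor of T cells and innate lymphocytes, at 178.6 and 295.4 CPM, and Klrb1c (NK1.1) at 118.5 and 193.6 CPM. Zbtb16 was at 10.7 CPM in NKT cells and 10.6 CPM in NK cells, and after thinning its share of cells was 0.576%, against 0.466% in macrophages, which is the background. Traj18, the joining segment of the invariant α chain, and Il4 and Il17a, cytokines made by subsets of these cells, had no UMI in 347 cells. A count of 0 allows up to 3 UMIs, and a 3′ library reads little of a joining segment. Trav11 and Trav11d, the variable segments of that chain, have no symbol in the deposited matrix.

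Transcripts of NK cells were abundant. Tyrobp was at 607.5 CPM in NKT, 702.3 in NK and 25.5 in Trm-like cells, and its lowest NKT heart, at 548.2 CPM, lay above the highest Trm-like heart, at 85.9. Fcer1g stood at 803.1 CPM in NKT and 951.8 in NK cells. Eomes, a transcription factor of cytotoxic lymphocytes, was at 648.7 CPM in NKT, 1013 in NK and 159.6 in Trm-like cells. Irf8, an interferon regulatory factor used by NK cells and myeloid cells, was at 1944, 2570 and 118 CPM. Klra8 (Ly49H), an activating receptor, was at 324.4 CPM in NKT, 530.5 in NK and 10.1 in Trm-like cells, and Prf1, perforin, at 446.9, 755.8 and 59.9 CPM. Ncr1 (NKp46) was at 31.5 CPM in NKT and 44.4 CPM in NK cells and had no UMI in Trm-like cells. By these markers the population is here called the cells annotated NKT, and no T cell identity is implied for each of them.

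**Figure D1:**
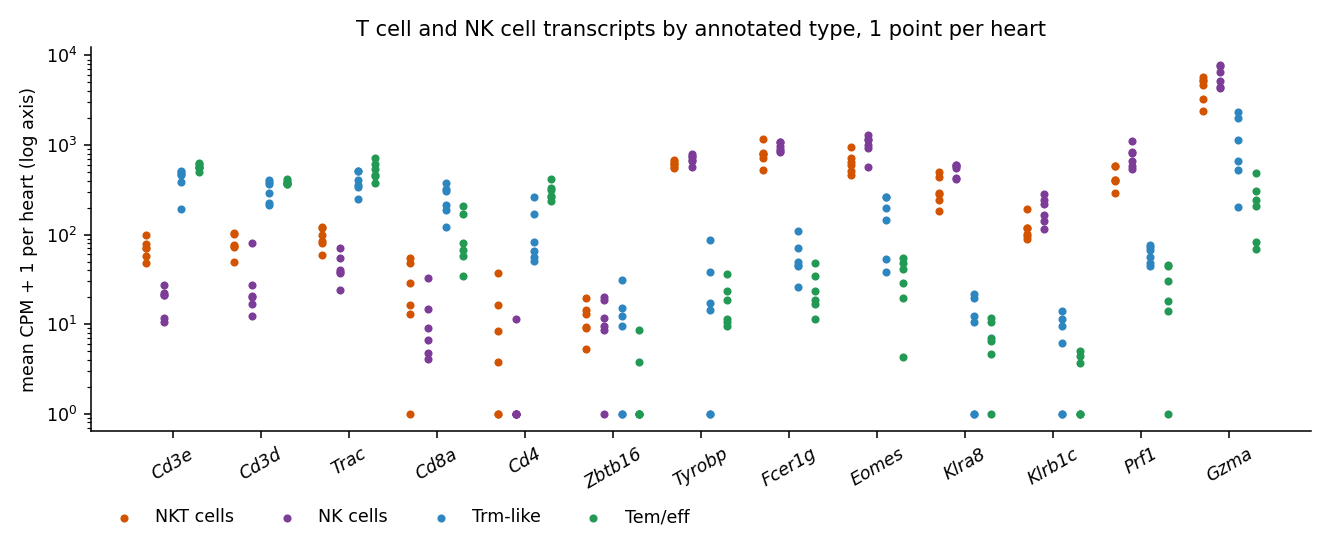
Mean CPM plus 1 (log axis) of 13 transcripts in 4 annotated types, with 1 point for each of the 6 hearts. The NKT cells sit near or below the NK cells for Tyrobp, Fcer1g, Eomes, Klra8 and Prf1, and between NK and T cells for Cd3e, Cd3d and Trac.

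The T cell transcripts were not spread evenly over the annotated NKT cells. Of Cd3e, Cd3d, Cd3g and Trac, 188 of the 347 cells (54.2%) had no UMI of any, 63 had UMIs of 1 and 96 (27.7%) had UMIs of 2 or more. In NK cells 773 of 931 (83.0%) had none, and in Tem/eff cells 1 of 327. The cells with 2 or more were 20, 23.5 and 34% of the NKT cells of the IL-33+ hearts and 27.5, 21.4 and 27.7% of those of the IL-33- hearts, and these groups overlapped (difference 0.285 percentage points, two-sided exact permutation p = 1). Those cells had more UMIs, with a median of 7265 against 5508 in the cells with none. Of the NK transcripts Tyrobp, Fcer1g, Klre1, Klra8, Klrb1c and Ncr1, 3 or more were found in 164 of the 188 cells without a T cell transcript, and still in 57 of the 96 cells with 2 or more, against 3 of the 320 Tem/eff cells with 2 or more.

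Along that split other genes moved in the same direction in all 6 hearts, as a description only. Ikzf2 (Helios), a transcription factor of activated and regulatory lymphocytes, was at 832.4 CPM in the cells with 2 or more T cell transcripts and 161.8 CPM in those with none. Lat, the adaptor of receptor signalling, was at 184.5 and 29.2 CPM, and Nr4a1, an early response gene of antigen receptors, at 322.6 and 153.6 CPM. In the other direction, Gzma was at 2232 CPM in the cells with 2 or more and 5661 in those with none, Fcer1g at 484.2 and 939.8, and Serpinb9, an inhibitor of granzyme B, at 351.3 and 797.4. The authors screened out likely doublets, droplets with more than 1 cell, by limits on UMIs, genes and mitochondrial share per cell, and the part of any that remained in this split was not tested.

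The number of UMIs separated the cells annotated NKT from those annotated NK. NKT cells had 3735 to 14309 UMIs with a median of 5742, and NK cells 1505 to 5690 with a median of 2711. Of the 758 cells of the 2 types with fewer than 3500 UMIs none was annotated NKT, which allows a share of up to 0.486% (exact binomial). The share was 40.3% of 77 cells between 4000 and 4500 UMIs, 93.8% of 96 cells between 5000 and 6000, and 158 of 158 cells at 6000 or more. Trm-like cells (median 2706) and Tem/eff cells (median 5694) differed likewise. The difference in CPM between NKT and NK cells thus moves with depth, and its part in them was not tested.

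**Figure D2:**
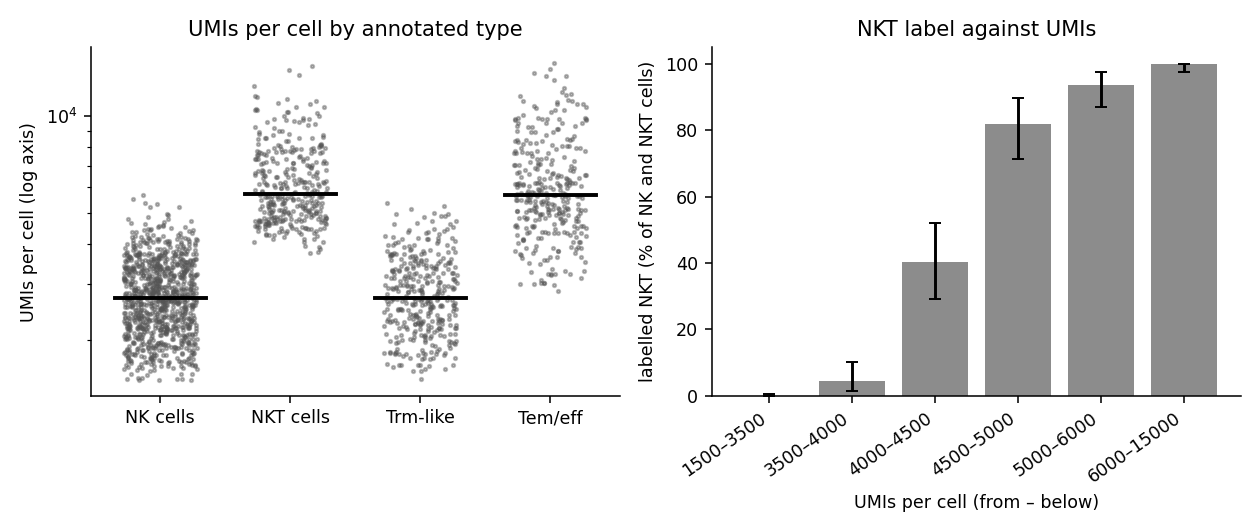
Left, UMIs per cell (log axis) for each cell of 4 annotated types, with the median as a line. Right, cells annotated NKT as a percentage of NK and NKT cells in 6 ranges of UMIs, with 95% exact binomial intervals; the share goes from 0% under 3500 UMIs to 100% at 6000 or more.

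Cells annotated NKT made up a larger share of the IL-33- hearts. They were 5.77, 7.39 and 6.0% of all annotated cells in the IL-33+ hearts and 8.25, 9.86 and 14.9% in the IL-33- hearts. The groups did not overlap, and the means were 6.39% ± 0.875 (SD, n = 3) and 11% ± 3.44 (SD, n = 3), a difference of -4.6 percentage points (IL-33+ minus IL-33-). The two-sided exact permutation p of 0.1 is the smallest that 3 hearts against 3 can give, and without heart 6, the highest, the difference was -2.67 percentage points. Among NK and NKT cells only, the NKT share was 26.3, 24.3 and 17.4% in the IL-33+ hearts and 39.7, 45.9 and 39.9% in the IL-33- hearts, again without overlap (exact p = 0.1).

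That share moved with the depth of the cells. The median UMIs of NK and NKT cells together were 3215.5, 2993 and 2750 in the IL-33+ hearts and 3826.5, 4062 and 3655 in the IL-33- hearts, and did not overlap. NK and NKT cells with 4500 UMIs or more, whatever their label, were 22.1, 21.4 and 18.8% of these cells in the IL-33+ hearts and 35.1, 41.0 and 38.5% in the IL-33- hearts. Because the NKT label itself followed UMIs, both measures move with the NKT share and are not separate from it. In NK cells alone the median UMIs were 2737, 2634 and 2547 against 3057, 3297 and 2936, without overlap. In NKT cells alone they were 5819, 5589 and 6007.5 against 5742, 5167 and 5635, which overlapped. Over all annotated cells the median UMIs overlapped, at 4458, 3292.5 and 3291.5 against 3679.5, 4223.5 and 4007. NK and NKT cells counted together were 21.9, 30.4 and 34.5% of the IL-33+ hearts and 20.8, 21.5 and 37.2% of the IL-33- hearts, which overlapped (difference 2.46 percentage points, exact p = 0.8). The part of depth in the NKT share was not tested, and these counts were chosen after the split by depth had been seen.

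**Figure D3:**
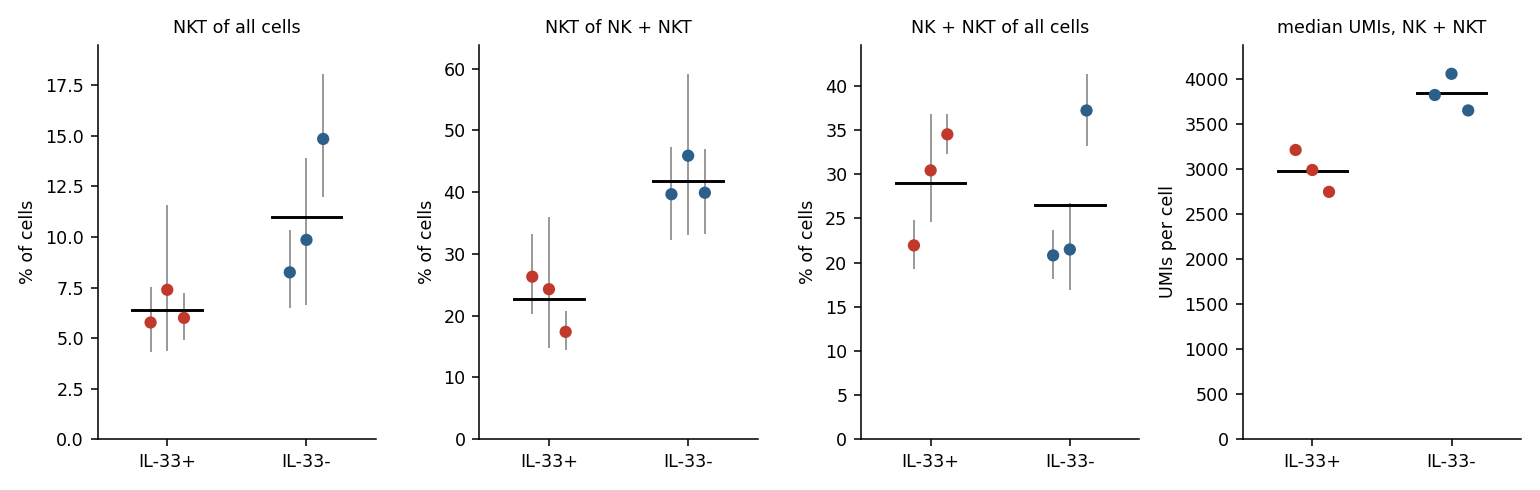
From left to right, for each heart: annotated NKT cells as a percentage of all cells, NKT cells as a percentage of NK and NKT cells, NK and NKT cells together as a percentage of all cells (grey lines, 95% exact binomial intervals), and the median UMIs of NK and NKT cells; black lines are group means. The groups overlap only in the panel of NK and NKT cells together.

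Within the annotated NKT cells, no gene passed the test between IL-33+ and IL-33- hearts. Of 9296 genes tested with limma on log2(mean CPM + 10), 0 had an adjusted p of 0.05 or less (percent called, 0%), and the smallest adjusted p was 0.851. With p unadjusted at 0.05, 171 genes (1.84%) were higher and 283 (3.04%) lower in the IL-33+ hearts, and limma-voom on the recovered UMIs also called 0. The study's own thresholds, a fold of at least 2 with p unadjusted at 0.05, passed 92 genes (0.99%), 30 of them higher and 62 lower. The hearts of the groups did not overlap for 935 genes (10.1%). The median log2 fold change of all genes was -0.04. Single genes below are therefore given as values, with fold changes as IL-33+ over IL-33- on the log2(CPM + 10) scale, which understates the change of low genes.

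The receptor of IL-33 was scarce. Il1rl1 was at 8.04, 7.66 and 8.47 CPM in the IL-33+ hearts and 5.35, 0 and 4.83 CPM in the IL-33- hearts, from 9 and 4 UMIs in all (log2 fold change 0.46 ± 0.38 (SE), limma adjusted p = 0.932). Areg, the growth factor amphiregulin, was at 12.8, 33.3 and 76.5 CPM against 16.1, 27.3 and 9.98 CPM, which overlapped (0.71 ± 0.44, limma adjusted p = 0.924). A difference in either was not detected.

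Among the markers of the annotation, Gzma was at 5699, 5270 and 4714 CPM in the IL-33+ hearts and 3287, 2373 and 5163 CPM in the IL-33- hearts, where heart 6 overlapped the other group. Its log2 fold change was 0.60 ± 0.16 (SE), with a limma adjusted p of 0.851. Nkg7 was at 1066, 1125 and 935.9 CPM against 844.2, 753 and 917.8 CPM, without overlap (0.31 ± 0.13, limma adjusted p = 0.924). Cd3e and Ccl5 had log2 fold changes of 0.11 and -0.02 and overlapped.

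Killer cell receptors were split. Of 26 listed genes 23 were tested, 11 higher and 12 lower in the IL-33+ hearts, with 5 and 4 at an unadjusted p of 0.05 or less, against 1.84% of all genes higher and 3.04% lower at that p. Klra4 (Ly49D; chromosome 6, 130043731 to 130067271, GRCm38), an activating receptor, was at 493, 248 and 364 CPM in the IL-33+ hearts and 248, 102 and 207 CPM in the IL-33- hearts, with hearts 2 and 4 almost level (log2 fold change 0.98 ± 0.25, limma adjusted p = 0.851). Klra8 (chromosome 6, 130115226 to 130129898) was at 292, 502 and 441 CPM against 286, 244 and 182 CPM, with hearts 1 and 4 nearly level (0.76 ± 0.20). Klrc1 (NKG2A; chromosome 6, 129666015 to 129678973), an inhibitory receptor, went the other way, at 182, 101 and 183 CPM against 242, 258 and 305.7 CPM (-0.79 ± 0.22). In the NKT cells with 2 or more T cell transcripts, from 4 to 34 cells a heart, both Klra4 and Klrc1 turned direction, to -0.82 and 0.15, and Klra8 did not, at 0.89. The Ly49 genes are near-identical copies in 1 cluster, so reads of one may be counted for another.

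Genes of cytotoxic cells leaned to the IL-33+ hearts. Of the 14 genes of NK adaptors and lineage, all tested, 12 were higher and 2 lower, with 5 and 1 at an unadjusted p of 0.05 or less and a median log2 fold change of 0.41 (0.21 without heart 5, with 3 and 1 at that p). Of all genes, 1.84% were higher and 3.04% lower at that p. Every list in this report was drawn up with earlier results of these data known, so its counts beside all genes are not a test. Klra8, Klre1 and Ncr1 are also in the list of killer cell receptors, so the lists are not separate. Eomes was at 953.7, 722 and 638 CPM in the IL-33+ hearts and 517, 458 and 603 CPM in the IL-33- hearts, without overlap (0.53 ± 0.16, limma adjusted p = 0.851). Prf1 was at 586, 409 and 586 CPM against 400, 294 and 406 CPM, also without overlap (0.51 ± 0.17). In the cells with 2 or more T cell transcripts Eomes was at -0.046 and Prf1 at 0.80 on the log2 fold change scale. Of the 19 cytotoxic granule genes, 13 were higher and 6 lower, with 5 and 2 at an unadjusted p of 0.05 or less and a median of 0.12. Without heart 5 the 5 became 2, and without heart 4 the median was 0.29. Gzmc, a granzyme of strongly activated NK cells, was among the lower genes, at 62.0, 27.4 and 27.2 CPM against 206.1, 66.6 and 56.8 CPM (-1.15 ± 0.37). The list median was -0.09 for the granule genes in NKT cells without a Cd3 or Trac UMI, a change of sign.

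Cell cycle genes leaned to the IL-33- hearts. Of 21 proliferation genes tested, 1 was higher and 20 lower in the IL-33+ hearts, with 0 and 8 at an unadjusted p of 0.05 or less, against 3.04% of all genes lower at that p, and the list median was -0.55. Top2a, which untangles DNA in dividing cells, was at 103, 18.9 and 67.2 CPM in the IL-33+ hearts and 145, 124 and 170 CPM in the IL-33- hearts (log2 fold change -1.29 ± 0.34, limma adjusted p = 0.851). Pcna, the clamp of DNA polymerase, was at 476, 340 and 390 CPM against 551, 596 and 619 CPM (-0.55 ± 0.15). Mki67 was at 61.3, 0 and 22.0 CPM against 77.2, 52.8 and 104 CPM, with heart 1 above heart 5. Heart 2, at 17 cells, held the lowest values of Top2a, Mki67 and Pcna, and without it 5 genes were higher and 16 lower with 7 still lower at an unadjusted p of 0.05 or less and a median of -0.29. In the NKT cells with 2 or more T cell transcripts the lean was not found, with 7 of 15 higher, 8 lower and a median of -0.02, and Top2a turned to 0.76 and Pcna to 0.024. Between types, after thinning to 1505 UMIs, Mki67 was at 55.5 CPM in NKT, 5.71 in NK and 101.6 in Tem/eff cells. Top2a was at 93.8, 30.7 and 193 CPM, and these differences were not tested.

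**Figure D4:**
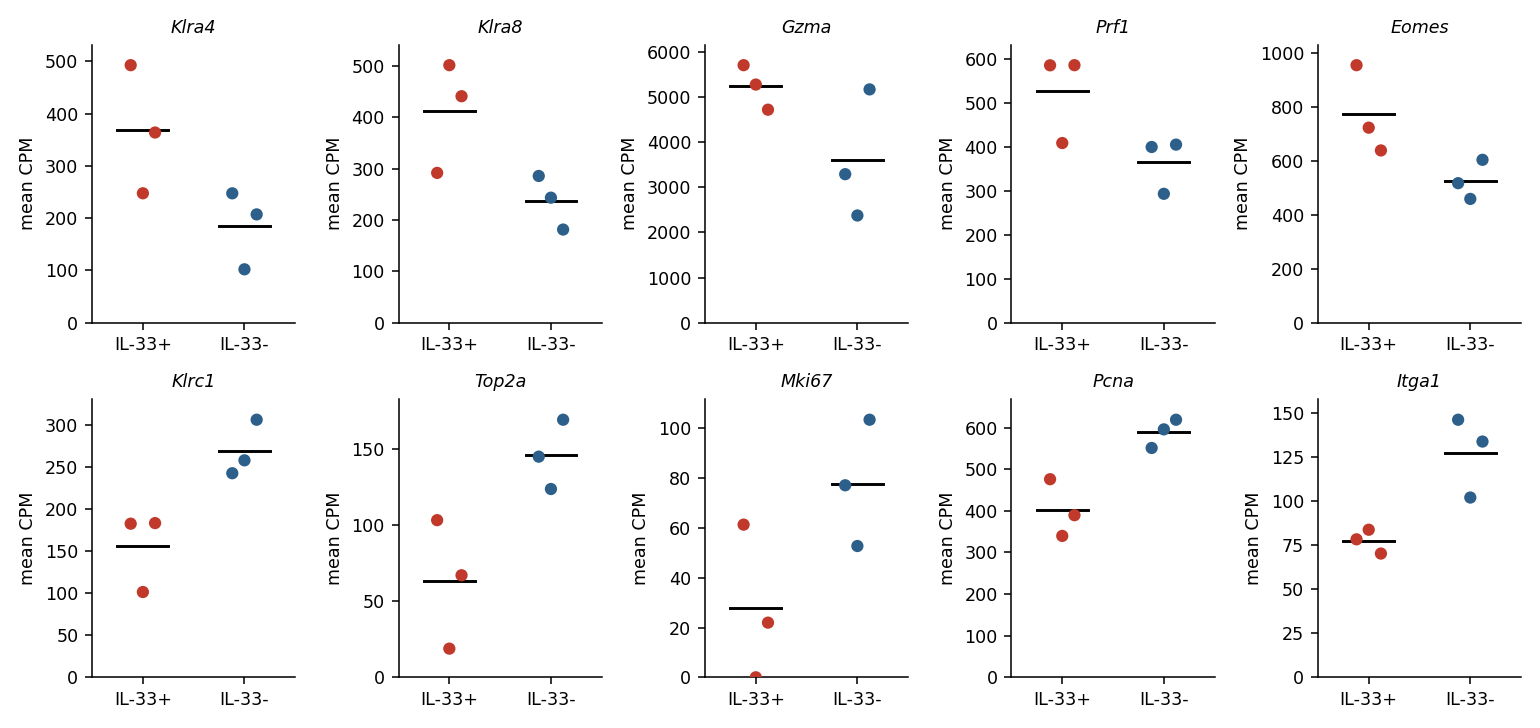
Mean CPM per heart of 10 genes in the annotated NKT cells, with 3 IL-33+ hearts (red) and 3 IL-33- hearts (blue) and the group means as lines. Klra4, Klra8, Prf1 and Eomes sit higher in the IL-33+ hearts, and Klrc1, Top2a, Pcna and Itga1 lower, and none passed the adjusted test.

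Receptors of tissue residence were mixed. Itga1 (CD49a), an integrin of resident lymphocytes, was at 78.4, 83.8 and 70.3 CPM in the IL-33+ hearts and 146, 102 and 134 CPM in the IL-33- hearts, without overlap (-0.64 ± 0.24, limma adjusted p = 0.924). Cxcr6, a chemokine receptor of resident cells, was at 27.97, 15.2 and 163 CPM against 106, 203 and 149 CPM, with heart 3 among the IL-33- values (-1.52 ± 0.44). Both turned direction in the cells with 2 or more T cell transcripts, Itga1 to 0.35 and Cxcr6 to 0.60. Among the 21 homing genes that could be tested 13 lay higher and 8 lower, and their median was 0.06. Of these, 4 higher and 3 lower were at an unadjusted limma p of 0.05 or less. Of all genes, 1.84% were higher and 3.04% lower at that p. The interferon-stimulated genes had 7 of 21 higher, 14 lower and a median of -0.17, with 0 higher and 1 lower at that p.

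Across all genes tested, 16 differed 2-fold or more without overlap and reached 50 CPM in the higher group, with unadjusted p values from 0.000249 to 0.0191. Smap2, a regulator of vesicle traffic, had the smallest p, at 97.8, 56.4 and 91.2 CPM in the IL-33+ hearts and 159, 188 and 170 CPM in the IL-33- hearts (-1.02 ± 0.24, limma adjusted p = 0.851). Of the 16, As3mt, Clu, Cma1 and Hsph1 were higher and the other 12 lower in the IL-33+ hearts. Cma1, a chymase found in NK cells of mice, was at 49.7, 55.3 and 57.6 CPM against 10.3, 4.65 and 35.5 CPM (1.43 ± 0.40). Clu rested on heart 3, at 191 CPM, and its fold change turned to -0.18 without cells that held B cell or macrophage transcripts.

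**Figure D5:**
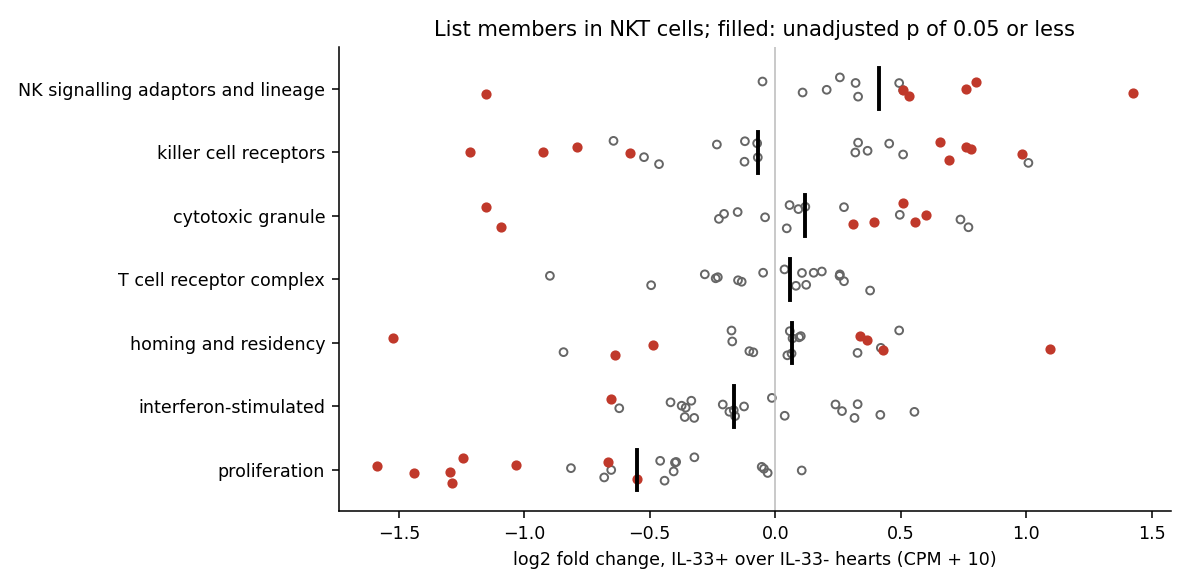
Log2 fold changes, IL-33+ over IL-33- hearts, of the tested members of 7 gene lists in the annotated NKT cells, with the list median as a line and filled points for an unadjusted p of 0.05 or less. Proliferation genes lie mostly below 0 (median -0.55) and NK adaptor and lineage genes mostly above it (median 0.41).

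The receptor genes of T cells did not lean to either group. Of 18 T cell receptor complex genes 10 were higher and 8 lower with none at an unadjusted p of 0.05 or less and a median of 0.06. The share of NKT cells with a Cd3e UMI, after 1 random thinning to 3735 UMIs per cell, was 18, 11.8 and 17% in the IL-33+ hearts and 15.9, 21.4 and 16.9% in the IL-33- hearts, which overlapped (difference -2.49 percentage points, exact permutation p = 0.6). Among 17 genes compared as shares of cells, Trdc and Gzmk did not overlap between groups and all 17 had an adjusted exact permutation p of 0.68 or more. By mean CPM the groups did not overlap for 10.1% of all 9296 genes, so these 2 genes are not singled out.

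The effect of graft IL-33 was not shown to differ between NKT cells and NK or Trm-like cells. The interaction called 0 of 8929 genes against NK cells and 0 of 7709 against Trm-like cells, with 365 and 318 genes at an unadjusted p of 0.05 or less. Top2a had a log2 fold change of 0.25 in NK cells, and the difference between the types, -1.54, had an adjusted limma p of 0.93. Eomes had a log2 fold change of 0.56 in NK cells against 0.53 in NKT cells.

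Because the label followed UMI number, NK and NKT cells were also compared together, a choice made after seeing the data. Of 10764 genes tested 44 passed at an adjusted p of 0.05 or less (0.409%), 26 higher and 18 lower in the IL-33+ hearts. Prf1 was at 767.3, 714.6 and 1021 CPM in the IL-33+ hearts and 556.9, 423.2 and 513.2 CPM in the IL-33- hearts (log2 fold change 0.73 ± 0.12, limma adjusted p = 0.00349), and Eomes at 1111, 1143 and 1053 CPM against 805.8, 518.6 and 797.7 CPM (0.66 ± 0.12, limma adjusted p = 0.00504). S100a4, a calcium-binding protein of activated lymphocytes, was lower, at 153.2, 196.9 and 151.1 CPM against 430.6, 385.7 and 240.7 CPM (-1.0 ± 0.16, limma adjusted p = 0.00349), as was Cxcr6 (-1.26 ± 0.23, limma adjusted p = 0.0062).

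The levels of these 44 genes in the 2 types are given as a description, from the same cells in which they were called. All 26 that were higher in the IL-33+ hearts had lower levels in NKT than in NK cells, and 17 of the 18 that were lower had higher levels in NKT cells. The share of all genes with such an order is not given here, so no excess is read from these counts. The share of NKT cells among the 2 types was lower in every IL-33+ heart, as given above, and the pooled comparison was not adjusted for it. In NK cells alone all 44 had the same sign, with 0 of 9565 genes passing the adjusted test there. In NKT cells alone 42 of 44 had it, as 1 was not tested and Ccl5 had the other sign. The 44 genes were called in these same cells and hearts, pooled. Shared signs are therefore largely set by that selection and are not a separate check of the 44 genes. The log2 fold changes of Prf1, Eomes, S100a4 and Cxcr6 were 0.62, 0.56, -0.99 and -0.95 in NK cells alone. In NKT cells alone they were 0.51, 0.53, -0.56 and -1.52. The parts of cell type, depth and graft genotype in these 44 genes were not tested apart.

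Transcripts of other cells were present in the annotated NKT cells. Summed fibroblast markers were at 810.3, 368.2 and 389.4 CPM in the IL-33+ hearts and 377.3, 355.2 and 336.7 CPM in the IL-33- hearts, so heart 1 stood apart. Dcn, a matrix proteoglycan, had a UMI in 34.9% of NKT and 33.4% of NK cells without thinning. After thinning to 1505 UMIs the shares were 12.1% and 19.9%. Summed haemoglobin and erythrocyte markers were at 61.4, 78.1 and 1869 CPM against 59.2, 8073 and 1291 CPM, so heart 5 had the most and the groups overlapped. Summed B cell markers were at 248, 1241 and 813.5 CPM against 738.7, 1186 and 268.5 CPM, mostly from Cd74 and Ighm, and hearts 1 and 6 were the lowest. Summed endothelial markers were at 180.7, 178.6 and 141.8 CPM against 118.4, 548.4 and 124.1 CPM, so heart 5 stood apart. Macrophage markers were between 91.8 and 200.9 CPM and neutrophil markers between 0 and 21.0 CPM in every heart. Their part in the comparisons was not tested.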

How the data were processed

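Cells were isolated from 6 grafts, stained with 1 hashtag per heart and run in 1 10x 3′ capture. Per the submitters' processing notes, Cell Ranger (version not given there), build mm10 and Partek 10.0.23.0425 were used, and the authors filtered cells on counts, genes and mitochondrial share, annotated the types and deposited log2 values of CPM + 1 per gene and cell. How hashtags were assigned is not given in the sources used here. Individual UMIs were recovered from the deposited log2 values; 99.94% of low values were whole within 0.05, and 22 symbols were not. Of 22337 symbols 19848 were above 0.

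The mean CPM per heart was compared with limma 3.58.1 in R 4.3.3 on log2(CPM + 10), for genes with at least 10 UMIs and a UMI in 3 hearts, with Benjamini-Hochberg adjustment; the procedure was checked on simulated data. p-values refer to the spread between hearts, 3 per group. In limma the variance of each gene was drawn towards a trend fitted over all genes (eBayes). Its p-values and SEs therefore also rest on the spread of other genes, and not on the hearts of that gene alone. Shares used exact permutation tests and thinning to the shallowest cell. Coordinates are GENCODE vM21. The members and lists were chosen with earlier results of these data known. Genes were named if markers, Il33, Il1rl1 or Areg, called, or at least 2-fold without overlap and at 50 CPM, or leading a list by level or p. Ikzf2, Lat, Serpinb9, S100a4, Gzmc and Irf8 were named after their values were seen.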

Additional observations from a re-analysis of the deposited data

How the results depend on the processing

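No gene passed the adjusted test under any of the other settings that kept all 6 hearts and all or a fixed subset of the NKT cells, apart from 1 named next; leaving out 1 heart gave 0 to 2 genes (Cxcr6 without heart 3, Gzma and Gm42418 without heart 6), the cells with 2 or more of Cd3e, Cd3d, Cd3g and Trac gave 1 (Rora), and NKT and NK cells together 44. The 92 genes at 2-fold and unadjusted p became 4 with 50 CPM added, 169 with 1 CPM added, 281 with limma-voom, 147 without cells holding B cell or macrophage transcripts, 76 to 313 without 1 heart, 30 with NK cells added, 224 in cells without a Cd3 or Trac UMI and 262 in those with 2 or more; the cause was not tested.

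The difference in NKT share kept its sign under each denominator and without each heart (-5.96 to -2.67 percentage points), and was 2.46 percentage points, the opposite sign, for NK and NKT cells together. The count of 2 non-overlapping shares of 17 became 0 without thinning and 2 to 6 without 1 heart.

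Log2 fold changes turned sign for genes near 0 and for larger ones. Among the larger, in all NKT cells, were Clu at 1.295, Areg at 0.713, Top2a at -1.295, Klra4 at 0.9825 and Cxcr6 at -1.525. Cd3e turned to -0.075 with NK cells added and lay between -0.099 and 0.36 without 1 heart. Ccl5 turned to 0.012 with median-of-ratios scaling, 0.12 without cells holding B cell or macrophage transcripts and 0.46 with NK cells added. Its value was 0.19 in the cells with 2 or more T cell transcripts and from -0.17 to 0.12 without 1 heart. Clu turned to -0.18 without cells holding B cell or macrophage transcripts. With NK cells added Il1rl1 was at -0.10, Serpinb6b at -0.0014 and Ccl4 at 0.14. In cells without a T cell transcript Areg was at -1.49. In cells with 2 or more, Top2a was at 0.76, Antxr2 at 0.0036, Klra4 at -0.82, Klrc1 at 0.15, Eomes at -0.046, Pcna at 0.024, Cxcr6 at 0.60, Itga1 at 0.35, Dusp2 at -0.044 and Ccl4 at 0.18, from 4 to 34 cells a heart.

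No paired analysis was possible because the labels number the hearts 1 to 6 and no source used here ties a heart of one group to a heart of the other. Heart 2 held 17 annotated cells and heart 5 held 28, so genes at low counts there have wide errors.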
